A study of Caenorhabditis elegans with 12 samples.

Results

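Astacin metalloproteases and factors of the molt were followed in Caenorhabditis elegans as the genes of the astacin family (nas), dpy-31, hch-1 and toh-1, the genes named mlt or noah, and bli-4 and bli-5. These names selected 52 of the 46904 gene IDs in the count table, of which 40 were astacins, 8 mlt genes, 2 noah genes and 2 bli genes. The symbol nas-2 stood for 2 of these IDs, so the members had 51 distinct symbols. A filter on low counts kept 46 members for testing, among 16526 genes tested. The 6 members that did not pass were both nas-2 IDs, nas-16, nas-17, nas-18 and nas-19.

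Astacins are secreted or membrane-bound zinc metalloproteases. Nematodes replace their cuticle at each molt, when a new apical matrix is secreted, its collagens are trimmed and cross-linked, and the old cuticle is digested and shed. Astacins act at the trimming and shedding steps, subtilisin-like convertases and Kunitz-type inhibitors act on other cuticle proteins or proteases, and ZP-domain proteins such as NOAH-1 and NOAH-2 build the matrix. Genes of the molt are known for transcription that rises and falls with each larval stage.

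RNA was sequenced from 12 libraries in 4 groups of 3, namely glh1 total, wt total, glh1 polysomal and wt polysomal RNA. GLH-1 is an RNA helicase of the Vasa family found in germ granules. The sources used here do not give the allele behind the label glh1, nor the strain behind the label wt. Each genotype was grown as 3 liquid cultures of synchronized larvae at 20 °C for about 40 h, mostly to young adulthood, and each lysate was split between a total RNA library and a library of polysomal RNA, the RNA that sediments with polysomes in sucrose.

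Library totals lay between 34520267 and 49672537 estimated counts, and annotated ribosomal RNA took 3.07 to 45.7% of them. The glh-1 transcript was not lower under the label glh1. Its level was 555 ± 27.7 CPM (counts relative to library size, scaled by TMM) in glh1 total and 345 ± 68.5 CPM in wt total libraries. In polysomal libraries it was 1094 ± 348 CPM in glh1 and 355 ± 53.7 CPM in wt (SD, n = 3 each). By edgeR's quasi-likelihood test glh-1 was not called in total RNA (log2 0.68 ± 0.26, SE, adjusted p = 0.200). In polysomal RNA it was called higher (1.62 ± 0.26, adjusted p = 0.0116). Without the allele, the label sets no expected level of this RNA. The glh1 group is therefore named below as the libraries labelled glh1. On the second principal component, with 18.6% of the variance, both libraries of wt culture 1 (-28.7 and -22.6) lay within the range of the libraries labelled glh1 (-31.5 to -18.4), away from wt cultures 2 and 3 (37.8 to 64.2). Polysomal library 3 labelled glh1 lay apart on the first component, at -136. The tissue field of the labels names whole embryos, but 9 zygotic embryo markers summed to 5.09 to 5.52 CPM in total libraries labelled glh1 and 7.31 to 11.3 CPM in wt ones, with 3.48 to 4.27 and 5.77 to 7.66 CPM of that from elt-1, which epidermis also expresses. The adult collagen col-19 alone had 444 to 499 CPM in total libraries labelled glh1 and 650 to 1101 CPM in wt ones. None of 9 lists of tissue markers held a gene called between genotypes in either fraction. Of all genes tested, 0.944% were called in total and 1.06% in polysomal RNA. With so few calls, the lists do not show that the tissue make-up was the same.

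The members were transcripts of low to moderate level. Levels between genes are given per length, as CPM per kb of exon, and ranked by the mean in wt total RNA. bli-4, which encodes the subtilisin-like convertase that processes cuticle collagens, stood first with 16.4 ± 0.276 CPM per kb in total libraries labelled glh1 and 18.6 ± 1.78 CPM per kb in wt ones. dpy-31, which encodes the procollagen C-proteinase that cleaves the collagen SQT-3, followed with 13.2 ± 0.875 CPM per kb in libraries labelled glh1 and 10.6 ± 0.202 in wt ones. nas-9 (11.2 ± 0.446 labelled glh1, 10.1 ± 1.68 wt), toh-1 (7.14 ± 0.433 labelled glh1, 8.69 ± 0.599 wt) and mlt-8 (6.58 ± 0.40 labelled glh1, 8.39 ± 1.86 wt) came next, and nas-13 and nas-27 stood last, with 0.267 ± 0.0555 and 0.0882 ± 0.0625 CPM per kb labelled glh1 against 0.119 ± 0.0617 and 0.0922 ± 0.0364 in wt (SD, n = 3 each). In 43 of 45 pairs of neighbours in that order the wt total libraries overlapped, and only bli-4 over dpy-31 and mlt-2 over nas-8 were separated.

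**Figure D1:**
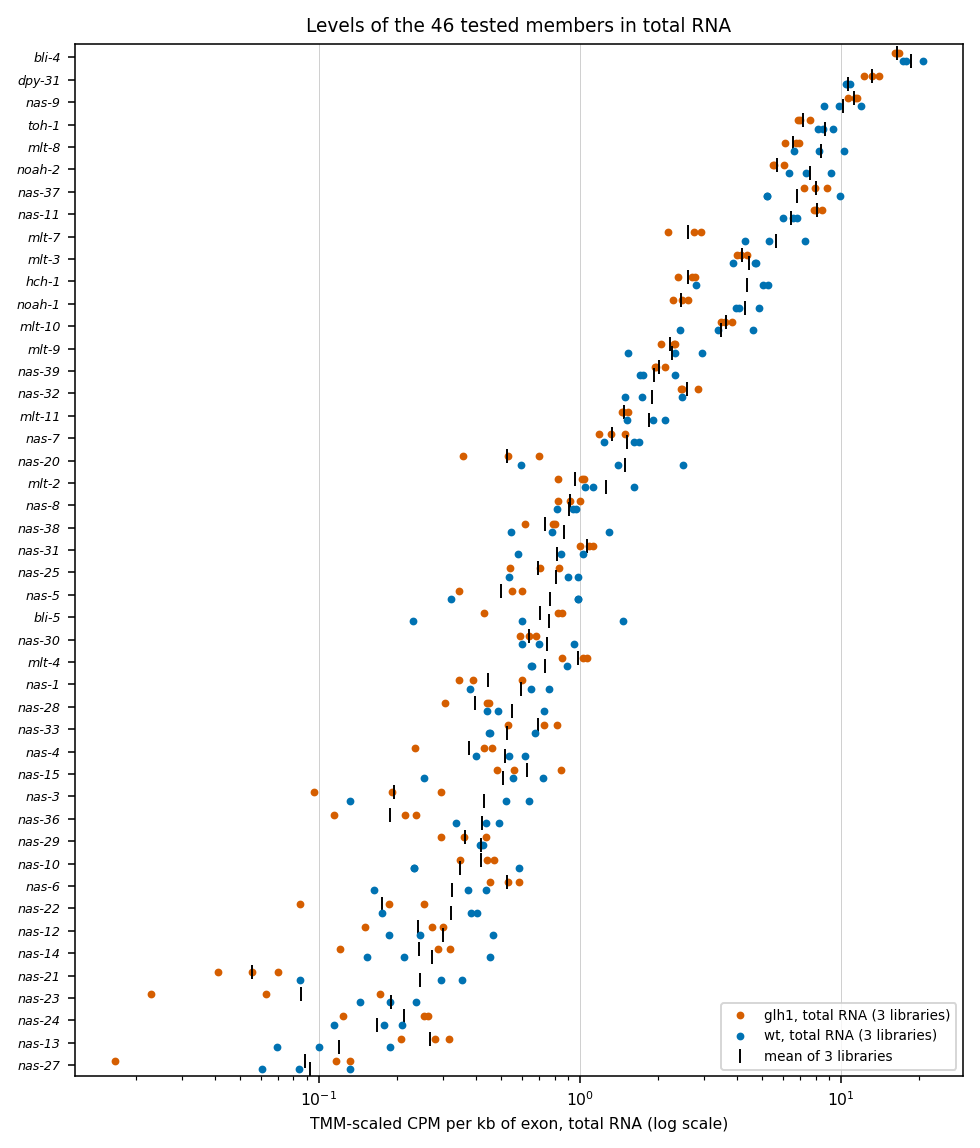
Level of each tested member in total RNA, as TMM-scaled CPM per kb of exon on a log axis, with 1 point per library (orange, labelled glh1; blue, wt) and a tick at the mean of 3. Members are ordered by the wt mean, which runs from 18.6 CPM per kb for bli-4 to 0.0922 for nas-27.

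In CPM without the length term, 10 members had a mean of at least 10 over the 12 libraries, and 28 had at least 1. The other 18 lay below 1 CPM on average and between 0 and 2.97 CPM in any single library. Of these 18, 17 were astacins and the remaining gene was bli-5. Chromosome V held 16 members, of which 10 were tested (21.7% of the tested members, against 20.5% of all genes tested), and X held 10, all tested (21.7%, against 13.8%). Several members sat side by side: nas-16 to nas-19 lie on V between 11392320 and 11402710, and nas-20, nas-21 and nas-22 on V with gaps of 0.3 and 0.8 kb. mlt-8 and mlt-10 lie 17.2 kb apart on II, and bli-5 and nas-1 18.3 kb apart on III (WBcel235). nas-16 to nas-19 had at most 2 counts in any library. Both nas-2 IDs had 0 in each library after rounding, and about 1 estimated count each over all 12 libraries.

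Between genotypes in total RNA, 1 of the 46 members (2.17%) was called at an adjusted p under 0.05 by edgeR's quasi-likelihood test, where 0.944% of all genes tested were called, 0.514% higher and 0.430% lower. That member was mlt-7, which encodes a heme peroxidase that cross-links cuticle collagen (WBGene00022743, II, 4393007 to 4404850, plus strand). mlt-7 had 6.88, 5.47 and 7.31 CPM in total libraries 1, 2 and 3 labelled glh1, against 10.8, 13.3 and 18.3 CPM in wt ones. The groups did not overlap, and the 3 wt libraries differed more among themselves than the 3 labelled glh1. The log2 fold change was -1.11 ± 0.24 (SE; adjusted p = 0.0473). The call was kept without wt total library 1 (adjusted p = 0.0257) and lost without each of the other 5. In those 5 fits the log2 fold change was -1.15 to -0.81, with adjusted p values of 0.228, 0.265 and 0.187 with library 1, 2 or 3 labelled glh1 left out in turn, and of 0.116 and 0.328 with wt library 2 or 3 left out in turn. The fold change of -0.81 was that without wt library 3. The call was also lost with size factors of the DESeq2 kind (0.0552), upper-quartile scaling (0.0732), no filter (0.0759) and limma on regularized log2 values (0.0528). In all, 15 alternatives gave adjusted p values of 0.00130 to 0.328 with the fold change below 0 in each.

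noah-1, which encodes a ZP-domain protein of the apical matrix, came closest among the members not called. It had 9.89, 8.66 and 9.36 CPM in total libraries labelled glh1 and 18.4, 15.5 and 15.1 CPM in wt ones. All 3 libraries labelled glh1 lay below all 3 wt ones, and the log2 fold change was -0.81 ± 0.19 (adjusted p = 0.0623). With the replicate number as a block its adjusted p was 0.0195, with DESeq2 0.00129 and with the total libraries alone 0.0328, in a range of 0.00129 to 0.299 over 15 alternatives. Its partner noah-2 had 14.1, 15.5 and 14.2 CPM in total libraries labelled glh1 and 18.8, 23.5 and 16.3 CPM in wt ones, again without overlap, at a log2 fold change of -0.42 ± 0.20 (adjusted p = 0.306). Together noah-1 and noah-2 summed to 23.6 to 24.2 CPM in total libraries labelled glh1 and to 31.5 to 39 CPM in wt ones. A smaller share of epidermal RNA and less of these RNAs within the epidermis cannot be told apart in whole worms. Differences in stage between the cultures were not tested. The 7 epidermis markers, all detected, summed to 530 to 576 CPM in total libraries labelled glh1 and 777 to 1198 CPM in wt ones, mostly col-19. Without col-19 the other 6 summed to 76.8 to 86.3 CPM labelled glh1 and 97.0 to 128 CPM in wt. nhr-23, a nuclear receptor of the molting cycle and 1 of those 6, averaged 18.2 and 28.9 CPM in the same groups (log2 -0.66 ± 0.21, adjusted p = 0.149). Of the other markers summed without col-19, elt-1, lin-26 and che-14 also lay lower labelled glh1, without overlap. For dpy-7 and elt-3 the groups overlapped, so the lower sum was not shared by every marker. The part of these markers in the values of mlt-7, noah-1 and noah-2 was not tested.

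Among the proteases of shedding and hatching, none was called between genotypes. nas-36, an astacin needed for ecdysis, had 0.533, 0.483 and 0.259 CPM in total libraries labelled glh1 and 0.758, 0.987 and 1.11 CPM in wt ones, without overlap (log2 -1.16 ± 0.41, adjusted p = 0.179). Its counterpart nas-37, which also acts in ecdysis, had 22.5, 18.3 and 20.2 CPM in total libraries labelled glh1 and 25.3, 13.2 and 13.3 CPM in wt ones. Here wt library 1 lay above and wt libraries 2 and 3 below all those labelled glh1, and the log2 fold change was 0.24 ± 0.27 (adjusted p = 0.687). hch-1, the hatching enzyme, had 5.33, 4.61 and 5.21 CPM in total libraries labelled glh1 and 10.2, 9.74 and 5.38 CPM in wt ones. wt library 3 stood just above the range labelled glh1, and the log2 fold change was -0.74 ± 0.27 (adjusted p = 0.188).

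The adjacent genes nas-20, nas-21 and nas-22, named here for their position and after their values were seen, had low counts and wide errors. nas-20 had 0.426, 0.831 and 0.637 CPM in total libraries labelled glh1 and 0.709, 1.67 and 2.97 CPM in wt ones, at a log2 fold change of -1.51 ± 0.52 (adjusted p = 0.173). With the replicate number as a block it was called (-1.29 ± 0.37, adjusted p = 0.0421). nas-21 had 0.0639, 0.0804 and 0.0472 CPM labelled glh1 and 0.0978, 0.340 and 0.408 CPM in wt (log2 -2.11 ± 0.76, adjusted p = 0.187). nas-22 had 0.320, 0.107 and 0.236 CPM labelled glh1 and 0.220, 0.511 and 0.485 CPM in wt (log2 -0.84 ± 0.49, adjusted p = 0.390). In each, wt library 1 was the lowest wt library, and only for nas-21 did the groups not overlap.

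**Figure D2:**
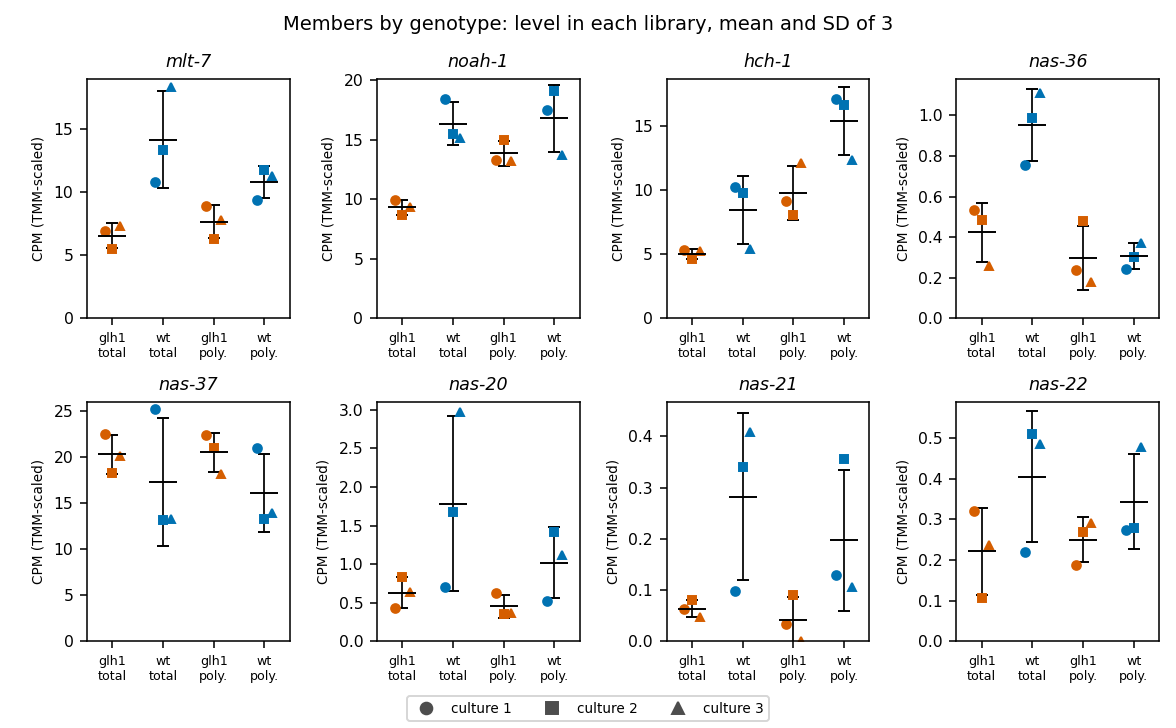
Levels (TMM-scaled CPM) of 8 members in each library, with glh1 left of wt in each fraction, markers for cultures 1, 2 and 3, and bars for the mean and SD of 3. In total RNA mlt-7 and noah-1 labelled glh1 lie below all wt points (at most 7.31 against at least 10.8 CPM for mlt-7), while for nas-37 wt culture 1 stands at 25.3 CPM above the rest.

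Over all members, the total RNA groups did not overlap for 13 of 46 (28.3%), against 33.7% of all genes tested (16.6% higher, 17.1% lower). dpy-31, nas-6, nas-11 and nas-13 were higher in libraries labelled glh1, and bli-4, hch-1, mlt-2, mlt-7, nas-21, nas-36, noah-1, noah-2 and toh-1 were lower. At an unadjusted p under 0.05 there were 6 members (13%), against 17.8% of all genes. The members' median log2 fold change was -0.19, and that of all genes was -0.07, which upper-quartile scaling shifted to 0.08. That scaling also moved the split of all called genes to 113 higher and 51 lower, against 85 higher and 71 lower with TMM.

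In polysomal RNA, 0 of 46 members were called by edgeR between genotypes, where 1.06% of all genes were (0.545% higher, 0.514% lower), and DESeq2 also called 0. At an unadjusted p under 0.05 there were 5 members (10.9%), against 15.7% of all genes. mlt-7 had 8.87, 6.28 and 7.81 CPM in polysomal libraries labelled glh1 and 9.39, 11.7 and 11.3 CPM in wt ones, which did not overlap (log2 -0.49 ± 0.24, adjusted p = 0.335). noah-1 had 13.3, 15 and 13.2 CPM labelled glh1 and 17.5, 19.1 and 13.7 CPM in wt, where wt library 3 lay within the range labelled glh1 (log2 -0.28 ± 0.18, adjusted p = 0.501). hch-1 had 9.17, 8.05 and 12.1 CPM labelled glh1 and 17.1, 16.6 and 12.3 CPM in wt (log2 -0.65 ± 0.26, adjusted p = 0.255). nas-39, related to tolloid and BMP-1 proteases, had 7.63, 8.38 and 10.6 CPM labelled glh1 and 5.41, 7.03 and 6.33 CPM in wt (log2 0.50 ± 0.21, adjusted p = 0.273). The gene F38E9.1, with 8.63 CPM, overlaps nas-39 on the same strand by 276 bases of gene span (start to end, introns included). Whether exons are shared was not tested, so the split of reads between these is uncertain. In all, 6 members (13%) did not overlap, against 17.6% of all genes (9.48% higher, 8.08% lower): nas-15, nas-32 and nas-39 higher in libraries labelled glh1, and hch-1, mlt-7 and nas-21 lower. Epidermis markers summed to 431 to 1079 CPM in polysomal libraries labelled glh1 and 1241 to 1408 CPM in wt ones. That gap came from col-19 (370 to 1003 CPM labelled glh1, 1172 to 1322 CPM in wt), and the other 6 markers overlapped, at 61.5 to 76.5 CPM labelled glh1 and 66.9 to 85.8 CPM in wt. The part of col-19 in these values was not tested.

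**Figure D3:**
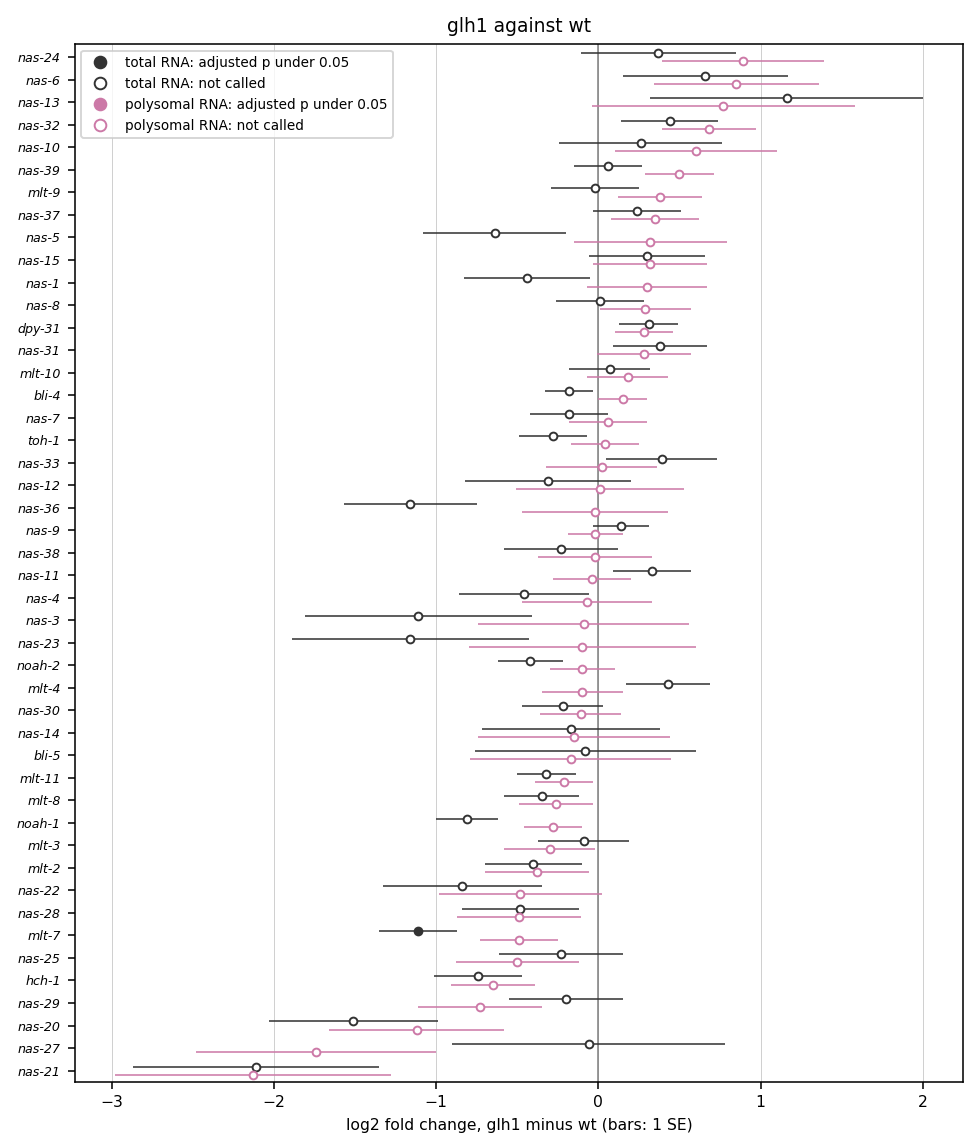
Log2 fold change of each tested member, glh1 minus wt, in total RNA (grey) and polysomal RNA (pink), with bars of 1 SE and filled points where the adjusted p is under 0.05. mlt-7 in total RNA (-1.11) is the 1 filled point, and the medians are -0.19 in total and -0.03 in polysomal RNA.

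The genotype calls changed with the wt cultures that entered the fit. In 6 of the 28 members with at least 1 CPM (21.4%, against 32.0% of all genes at that level), total libraries of wt cultures 2 and 3 lay outside the range labelled glh1 on 1 side and wt culture 1 did not. For nas-4, nas-7, nas-31 and nas-32 wt culture 1 lay within that range, and for nas-9 and nas-37 beyond its other end. With both libraries of wt culture 1 left out, an alternative chosen after the data were seen, 3 members were called in total RNA, against 9.41% of all genes in that fit: mlt-7 lower (adjusted p = 0.0163), nas-20 lower (log2 -1.80 ± 0.38, adjusted p = 0.0213) and nas-37 higher (0.73 ± 0.17, adjusted p = 0.0254). In polysomal RNA, 3 members were called, against 8.77% of all genes: nas-10 higher (1.40 ± 0.33, adjusted p = 0.0305), nas-20 lower (-1.51 ± 0.41, adjusted p = 0.0484) and nas-27 lower (-2.32 ± 0.59, adjusted p = 0.0404). In each fraction 3 of 46 was a smaller share than that of all genes. Over all alternatives, adjusted p was 0.0213 to 0.698 for nas-20 and 0.0254 to 0.952 for nas-37 in total RNA, and 0.0305 to 0.905 for nas-10, 0.0484 to 0.711 for nas-20 and 0.0404 to 0.660 for nas-27 in polysomal RNA.

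Most calls among the members were between polysomal and total RNA. A log2 fold change of polysomal minus total RNA compares an RNA's share of the polysomal library with its share of the total library, relative to other RNAs. In cultures labelled glh1, 14 members were higher and 3 lower in polysomal RNA, together 17 of 46, where 42.7% of all genes were called (23.6% higher and 19.1% lower). In wt cultures 12 were higher and 5 lower, again 17 of 46, where 39.9% were called (20.1% higher and 19.8% lower). As shares of the members, calls higher came to 30.4% labelled glh1 and 26.1% in wt, and calls lower to 6.52% and 10.9%. Upper-quartile scaling moved the median of all genes to 0.28 labelled glh1, against 0.13 with TMM, and to 0.32 in wt, against 0.06 with TMM, and in wt it gave 13 members higher and 3 lower (all genes 4833 higher and 2384 lower, against 3321 and 3272 with TMM). The members' medians were 0.21 labelled glh1 and -0.10 in wt. The 11 members called higher in both genotypes were hch-1, toh-1, dpy-31, nas-9, nas-30, nas-32, mlt-4, mlt-8, mlt-9, mlt-11 and noah-2, and the 2 called lower in both were nas-11 and mlt-2. Among members with at least 1 CPM, 13 of 28 were higher and 2 lower labelled glh1 (27.2% and 21.8% of all such genes), and 11 and 3 in wt (23.4% and 22.2%).

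**Figure D4:**
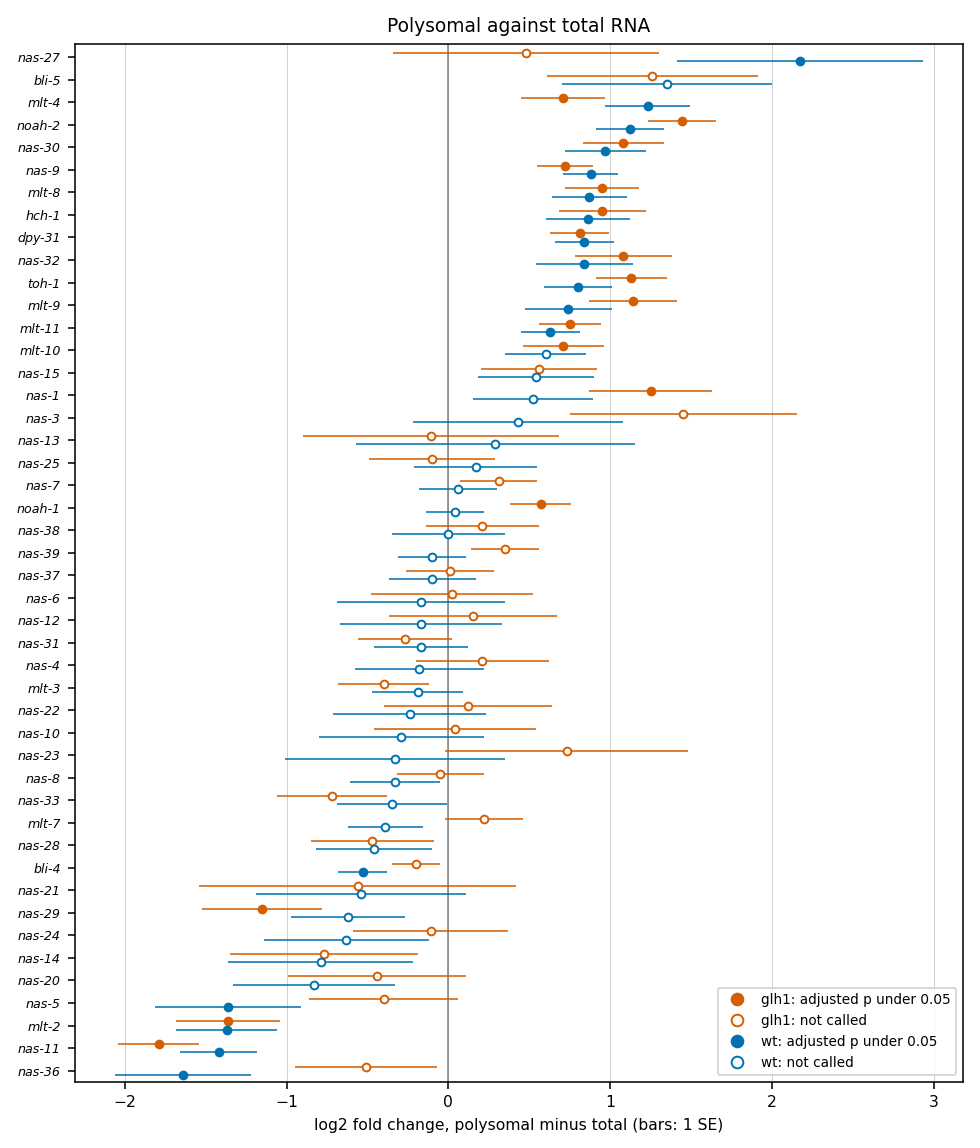
Log2 fold change of each tested member, polysomal minus total RNA, in cultures labelled glh1 (orange) and wt (blue), with bars of 1 SE and filled points where the adjusted p is under 0.05. The filled points right of 0 include noah-2 (1.44 labelled glh1, 1.12 wt) and those left of 0 include nas-11 (-1.79 and -1.42).

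The 3 astacins outside the nas names were all called higher in polysomal RNA in both genotypes. dpy-31 (WBGene00006592, III, 7202206 to 7207664) had 40.9, 43.0 and 60.6 CPM in polysomal and 29.2, 27.4 and 25.5 CPM in total libraries labelled glh1. In wt it had 41.3, 44.0 and 33.6 CPM in polysomal and 22, 21.8 and 22.6 CPM in total libraries. The fractions did not overlap in either genotype, and the log2 fold changes were 0.81 ± 0.18 labelled glh1 (adjusted p = 0.00387) and 0.84 ± 0.18 in wt (adjusted p = 0.00337). toh-1, a tolloid homolog, had 20.9, 20.4 and 33.3 CPM in polysomal and 10.9, 11.1 and 12.2 CPM in total libraries labelled glh1, and 19.9, 25.7 and 26.8 CPM in polysomal and 13.7, 14.9 and 13 CPM in total wt libraries. Polysomal library 3 was the highest labelled glh1 for both genes, and all polysomal values lay above all total values. The log2 fold changes of toh-1 were 1.13 ± 0.22 (adjusted p = 0.00164) and 0.80 ± 0.21 (adjusted p = 0.0109), and without wt total library 3 the wt call was lost (adjusted p = 0.0521). hch-1, with the values given above, was higher by 0.95 ± 0.27 labelled glh1 (adjusted p = 0.0124) and by 0.86 ± 0.26 in wt (adjusted p = 0.0209), again without overlap. Its calls were lost without each of the total libraries labelled glh1 (0.0507 to 0.0626), and in wt without polysomal library 1 (0.0521), polysomal library 2 (0.0699) or total library 3 (0.0904).

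Of the 31 tested nas genes, 4 (12.9%) were higher and 2 (6.45%) lower in polysomal RNA labelled glh1, against 23.6% and 19.1% of all genes. In wt 4 (12.9%) were higher and 3 (9.68%) lower, against 20.1% and 19.8% of all genes. nas-9 (WBGene00003528, V, 4836027 to 4840013) had 32.7, 30.8 and 36.2 CPM in polysomal and 20.8, 19.2 and 20.5 CPM in total libraries labelled glh1, and 36.5, 30.2 and 34.5 against 21.6, 17.7 and 15.6 CPM in wt. Its log2 fold changes were 0.72 ± 0.17 labelled glh1 (adjusted p = 0.00505) and 0.88 ± 0.17 in wt (adjusted p = 0.00167), with no overlap of the fractions. nas-30 had 3.74, 3.77 and 4.45 CPM in polysomal and 2.00, 1.74 and 1.89 CPM in total libraries labelled glh1, and 3.40, 5.25 and 4.23 against 2.05, 2.79 and 1.77 CPM in wt. It too was apart in both genotypes, by 1.08 ± 0.25 labelled glh1 (adjusted p = 0.00480) and 0.97 ± 0.25 in wt (adjusted p = 0.00915). nas-32 had 8.41, 8.35 and 16.6 CPM in polysomal and 5.77, 5.01 and 4.97 CPM in total libraries labelled glh1, and 7.81, 5.74 and 7.15 against 5.01, 3.54 and 3.03 CPM in wt. Polysomal library 3 labelled glh1 stood above all the others, and the fractions were apart in both genotypes. nas-32 was called at 1.08 ± 0.30 labelled glh1 (adjusted p = 0.0113; 0.0746 without total library 3) and 0.84 ± 0.30 in wt (adjusted p = 0.0391). Of the 6 fits that each left out 1 wt library, the one without total library 1 kept the wt call and the others lost it (0.0609 to 0.172). The wt call was also lost with size factors of the DESeq2 kind (0.0543), a strict filter (0.0537) and limma on regularized log2 values (0.0635).

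nas-11 (WBGene00003530, X, 6713577 to 6716357) went the other way and had the lowest log2 fold change of the members labelled glh1. It had 5.16, 4.31 and 2.96 CPM in polysomal and 15, 14.3 and 14 CPM in total libraries labelled glh1, and 3.52, 3.81 and 5.55 against 12.1, 10.7 and 11.7 CPM in wt. All 6 polysomal libraries lay far below all 6 total libraries, at -1.79 ± 0.25 labelled glh1 (adjusted p = 2.38e-04) and -1.42 ± 0.24 in wt (adjusted p = 8.16e-04). Its gene span overlaps that of smf-2 (7.79 CPM on average) by 163 bases on opposite strands. Whether exons overlap was not tested, and use of the strand in counting is not stated in the sources. nas-36 had 0.238, 0.479 and 0.182 CPM in polysomal and 0.533, 0.483 and 0.259 CPM in total libraries labelled glh1, which overlapped (-0.51 ± 0.44, adjusted p = 0.368). In wt it was called lower, with 0.242, 0.305 and 0.372 CPM in polysomal and 0.758, 0.987 and 1.11 CPM in total libraries (-1.64 ± 0.42, adjusted p = 0.00813), and the difference between genotypes was not called (1.14 ± 0.61, adjusted p = 1.000). nas-37 was not called, with 22.4, 21 and 18.2 CPM in polysomal libraries labelled glh1 and 21, 13.3 and 14 CPM in wt polysomal ones, and log2 fold changes over total RNA of 0.01 ± 0.27 and -0.10 ± 0.27.

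The low nas-1, nas-29, nas-27 and nas-5 were each called in a single genotype, and for none was the difference between genotypes called. nas-1 was higher labelled glh1, with 1.26, 0.898 and 1.61 CPM in polysomal and 0.703, 0.456 and 0.401 CPM in total libraries (1.25 ± 0.38, adjusted p = 0.0186). In wt it had 0.710, 1.19 and 1.17 CPM in polysomal and 0.758, 0.443 and 0.893 CPM in total libraries. nas-29 was lower labelled glh1, with 0.340, 0.449 and 0.182 against 0.724, 0.590 and 0.872 CPM (-1.15 ± 0.37, adjusted p = 0.0262), and had 0.710, 0.508 and 0.399 against 0.832, 0.851 and 0.835 CPM in wt. Both sets of nas-29 libraries were apart. nas-27 had 0.187, 0.120 and 0.328 CPM in polysomal and 0.213, 0.0268 and 0.189 CPM in total libraries labelled glh1. In wt it was called higher, with 0.145, 0.711 and 1.28 CPM in polysomal and 0.0978, 0.136 and 0.214 CPM in total libraries (2.17 ± 0.76, adjusted p = 0.0374), although the fractions overlapped. nas-5 had 0.493, 0.479 and 0.328 against 0.639, 0.697 and 0.401 CPM labelled glh1, and was called lower in wt, with 0.420, 0.406 and 0.213 against 1.15, 0.374 and 1.15 CPM (-1.36 ± 0.45, adjusted p = 0.030). Its fractions overlapped in both genotypes. These calls were lost without single libraries: nas-1 without polysomal library 1 or 3 or total library 2 or 3 (0.0525 to 0.121), nas-29 without polysomal or total library 3 (0.0746 and 0.0725), nas-27 without each wt library other than polysomal library 1 (0.0707 to 0.192), and nas-5 without polysomal library 2 or 3 or total library 1 or 3 (0.0554 to 0.121). The nas-5 call was also lost with upper-quartile scaling (0.0747), only the groups compared (0.0600) and wt culture 1 left out (0.110).

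The astacins linked to the pharynx and to sleep during the molt were not called in either fraction contrast. nas-6, which acts in the pharyngeal grinder, had 0.646, 1.14 and 0.547 CPM in polysomal and 0.661, 0.858 and 0.778 CPM in total libraries labelled glh1, and 0.775, 0.254 and 0.213 against 0.636, 0.238 and 0.544 CPM in wt. Its partner in the grinder, nas-7, had 2.38, 2.33 and 1.93 against 2.00, 1.77 and 1.60 CPM labelled glh1, and 1.84, 2.36 and 2.18 against 1.66, 2.28 and 2.17 CPM in wt. nas-38, linked to molting sleep, had 1.82, 1.62 and 2.48 against 1.85, 1.82 and 1.41 CPM labelled glh1, and 1.36, 2.11 and 2.52 against 1.25, 2.96 and 1.79 CPM in wt. The fractions overlapped for all 3 genes in both genotypes. nas-39 had 6.80, 6.73 and 7.40 CPM in total libraries labelled glh1, all below the polysomal values given above (0.35 ± 0.21, adjusted p = 0.204), and 6.07, 8.07 and 5.92 CPM in total wt libraries, which overlapped the polysomal ones.

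The convertase bli-4 and the Kunitz-type inhibitors differed from each other. bli-4 had 109, 112 and 104 CPM in polysomal and 124, 122 and 126 CPM in total libraries labelled glh1 (-0.20 ± 0.15, adjusted p = 0.294), and 91.5, 95.7 and 105 against 131, 156 and 135 CPM in wt (-0.53 ± 0.15, adjusted p = 0.0137). The fractions were apart in both genotypes, and the wt call was lost with upper-quartile scaling (-0.27 ± 0.13, adjusted p = 0.115). bli-5 encodes a Kunitz-type inhibitor and had 0.663, 1.08 and 2.08 CPM in polysomal and 0.320, 0.617 and 0.637 CPM in total libraries labelled glh1, and 0.532, 1.78 and 1.97 against 0.171, 1.09 and 0.447 CPM in wt. In each of the 6 cultures the polysomal value was above the total value of its own lysate, at 1.26 ± 0.65 labelled glh1 (adjusted p = 0.136) and 1.35 ± 0.65 in wt (adjusted p = 0.116). With culture as a block bli-5 was called in both (1.20 ± 0.36, adjusted p = 0.0237, and 1.46 ± 0.36, adjusted p = 0.0122). The gene span of bli-5 overlaps that of cope-1 by 82 bases on the opposite strand, and cope-1 averaged 47.3 CPM against 0.948 CPM for bli-5. Whether exons overlap was not tested, so the count of bli-5 is uncertain. mlt-11, a Kunitz-domain protein needed for the molt, had 22.2, 27.7 and 23.1 CPM in polysomal and 14.2, 15 and 14.3 CPM in total libraries labelled glh1, and 27.4, 32.2 and 24.5 against 18.7, 20.7 and 14.8 CPM in wt. It was higher without overlap, by 0.75 ± 0.19 labelled glh1 (adjusted p = 0.00656) and 0.63 ± 0.18 in wt (adjusted p = 0.0163), with the wt call lost without polysomal library 2 (0.0594) or total library 3 (0.0660).

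Of the ZP-domain pair, noah-2 (WBGene00009926, IV, 14091254 to 14096626) had the highest log2 fold change labelled glh1 among members with at least 1 CPM. noah-2 had 34.4, 32.6 and 51.7 CPM in polysomal libraries labelled glh1 and 42.0, 45.3 and 39.9 CPM in wt ones, against the total values given above. All polysomal libraries stood above all total ones, at 1.44 ± 0.21 labelled glh1 (adjusted p = 3.27e-04) and 1.12 ± 0.21 in wt (adjusted p = 0.00126). noah-1 was called labelled glh1 (0.57 ± 0.19, adjusted p = 0.0246) and had 0.04 ± 0.18 in wt (adjusted p = 0.893). Of the 6 fits that each left out 1 library labelled glh1, the one without polysomal library 3 kept the noah-1 call and the others lost it (0.0707 to 0.134). With no filter the noah-1 call was also lost (0.0875). The difference between genotypes was 0.54 ± 0.26 (adjusted p = 1.000).

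Of the 8 mlt genes, 5 (62.5%) were higher and 1 (12.5%) lower in polysomal RNA labelled glh1, against 23.6% and 19.1% of all genes. In wt 4 (50.0%) were higher and 1 (12.5%) lower, against 20.1% and 19.8% of all genes. MLT-2, MLT-3 and MLT-4 are ankyrin-repeat partners of the NEKL kinases, which act in endocytosis in the epidermis. Their RNAs parted: mlt-2 had 0.968, 0.928 and 0.511 CPM in polysomal and 2.26, 1.80 and 2.22 CPM in total libraries labelled glh1, and 1.21, 1.17 and 0.797 against 3.52, 2.28 and 2.45 CPM in wt. It was lower in both, at -1.36 ± 0.32 labelled glh1 (adjusted p = 0.00462) and -1.37 ± 0.31 in wt (adjusted p = 0.00413), without overlap. mlt-4 had 3.38, 3.59 and 2.66 CPM in polysomal and 2.13, 2.06 and 1.72 CPM in total libraries labelled glh1, and 2.6, 3.93 and 3.80 against 1.32, 1.80 and 1.3 CPM in wt. It was higher in both, by 0.71 ± 0.26 labelled glh1 (adjusted p = 0.0423) and 1.23 ± 0.26 in wt (adjusted p = 0.00311), and without overlap. The call labelled glh1 was kept without polysomal library 3 and lost without each of the other libraries labelled glh1 (0.0915 to 0.214). With size factors of the DESeq2 kind (0.0567) and with no filter (0.105) that call was also lost. mlt-3 was not called (-0.40 ± 0.28 labelled glh1, -0.19 ± 0.28 in wt). A pseudogene overlaps its gene span by 737 bases on the same strand, and whether exons are shared was not tested.

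The remaining mlt genes were called higher or not at all. mlt-8, needed for the molt, had 12.0, 13.2 and 17.1 CPM in polysomal and 7.63, 6.78 and 7.43 CPM in total libraries labelled glh1, and 13.9, 20.2 and 16.6 against 9.12, 11.4 and 7.30 CPM in wt. It was higher by 0.95 ± 0.23 labelled glh1 (adjusted p = 0.00552) and 0.87 ± 0.23 in wt (adjusted p = 0.00949; 0.0504 without wt total library 3), without overlap. mlt-9, also needed for the molt, had 9.36, 8.77 and 12.7 CPM in polysomal and 4.82, 4.29 and 4.83 CPM in total libraries labelled glh1, and 9.78, 7.28 and 6.59 against 6.12, 4.83 and 3.2 CPM in wt. The fractions were apart in both, at 1.14 ± 0.27 labelled glh1 (adjusted p = 0.00476) and 0.74 ± 0.27 in wt (adjusted p = 0.0404). The wt call was lost without polysomal library 1 or 2 or total library 2 or 3 (0.0767 to 0.179). It was also lost with size factors of the DESeq2 kind (0.0517), a strict filter (0.0537) and only the groups compared (0.0724). mlt-10, the founding member of a nematode-specific family, had 11.2, 14.5 and 15.9 CPM in polysomal and 8.12, 8.95 and 8.42 CPM in total libraries labelled glh1, and 9.89, 14.4 and 12.5 against 5.65, 10.8 and 7.90 CPM in wt. It was called labelled glh1 (0.71 ± 0.25, adjusted p = 0.0375), a call kept without polysomal library 1 and lost without each of the other libraries labelled glh1 (0.0779 to 0.146). With size factors of the DESeq2 kind (0.0535) and with no filter (0.0711) that call was also lost. In wt mlt-10 had 0.60 ± 0.25 (adjusted p = 0.0752), or 0.63 ± 0.19 with culture as a block (adjusted p = 0.0243). mlt-7 was not called (0.22 ± 0.24 labelled glh1, -0.39 ± 0.23 in wt).

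**Figure D5:**
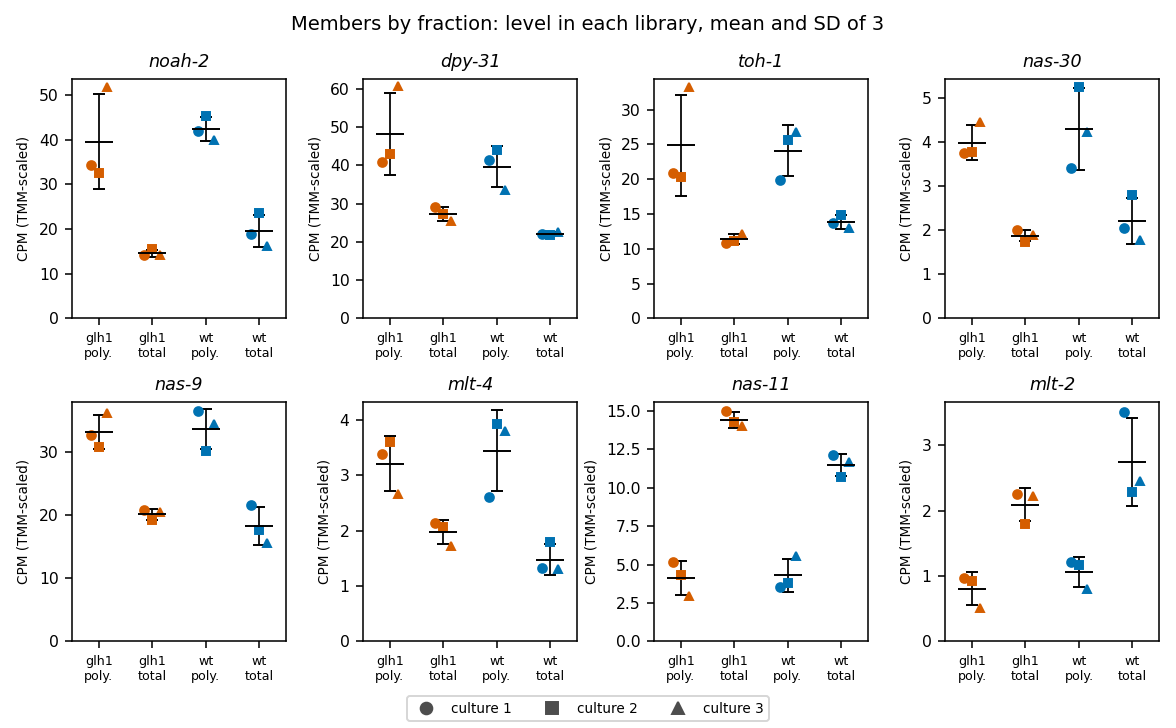
Levels (TMM-scaled CPM) of 8 members in each library, with polysomal left of total RNA in each genotype, markers for cultures 1, 2 and 3, and bars for the mean and SD of 3. noah-2, dpy-31, toh-1, nas-30, nas-9 and mlt-4 stand higher in polysomal RNA in both genotypes and nas-11 and mlt-2 lower, for nas-11 at most 5.55 against at least 10.7 CPM.

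With each library left out in turn, 8 of the 14 calls higher and 2 of the 3 calls lower labelled glh1 were kept in every fit, and in wt 5 of 12 and 4 of 5. The fractions did not overlap for 23 members labelled glh1 (18 higher, 5 lower), against 63.6% of all genes (34.3% higher, 29.3% lower), and for 16 in wt (11 higher, 5 lower), against 49.2% of all genes (25.0% higher, 24.2% lower). At an unadjusted p under 0.05 there were 17 members labelled glh1, against 51.5% of all genes, and 18 in wt, against 48.9%. Without total library 3 labelled glh1, 10 of 46 members were called in cultures labelled glh1, against 4859 of 16866 genes. In wt 9 members were called without total library 3, against 4401 of 16740 genes. Without wt polysomal library 2, 11 members were called in wt, against 5364 of 16862 genes. Without polysomal library 3 labelled glh1, 14 members were called in cultures labelled glh1, 12 higher and 2 lower. In that fit 6380 of 16865 genes were called, 3408 higher and 2972 lower. With both libraries of wt culture 1 left out, 16 were called in wt, 12 higher and 4 lower, against 37.3% of all genes (20.0% higher, 17.3% lower).

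The polysomal to total difference itself was compared between genotypes as an interaction. edgeR called 0 of 46 members and 0 of 16526 genes (0% called), DESeq2 called 0 members and 3 genes, and at an unadjusted p under 0.05 there were 0 members against 2.97% of all genes. The members' log2 interaction had a median of 0.15, against 0.07 for all genes, with a median SE of 0.47. Ratios taken within each lysate were above 1 in all 6 cultures for 16 members (34.8%, against 31.7% of all genes) and below 1 in all 6 for 7 (15.2%, against 26.9%). With upper-quartile scaling they were above 1 for 18 (39.1%, against 38.3%) and below 1 for 3 (6.52%, against 21.1%).

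Genes of the same pathway outside the members were counted from 6 lists. Between genotypes, 0 members of any list were called in either fraction by edgeR, where 0.944% of all genes were called in total and 1.06% in polysomal RNA. For every list below, the shares of all genes in the fraction contrasts were 23.6% higher and 19.1% lower labelled glh1. In wt they were 20.1% higher and 19.8% lower. Of 22 other molting genes, 10 were higher and 5 lower in polysomal RNA labelled glh1, and 6 higher and 5 lower in wt, with medians of 0.55 and 0.06. The nuclear receptor nhr-23 was lower, at -0.77 ± 0.21 labelled glh1 (adjusted p = 0.0118) and -1.3 ± 0.22 in wt (adjusted p = 6.79e-04). Lower too were myrf-1, a membrane-bound transcription factor (-1.28 labelled glh1, -1.78 wt), the endocytic receptor lrp-1 (-1.10 and -1.68) and the endosomal co-chaperone rme-8 (-0.89 and -1.18). These genes were named by smallest adjusted p and do not stand for the list, whose 10 higher genes labelled glh1 and 6 in wt are not named.

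Among cuticle collagens and the enzymes that modify them, more genes were called higher than lower in polysomal RNA. Of 23 tested cuticle collagens, 12 were higher and 1 lower labelled glh1, and 9 higher and 1 lower in wt, with medians of 1.41 and 1.33. sqt-3, the collagen that DPY-31 cleaves, averaged 242 CPM in polysomal and 67.0 CPM in total RNA labelled glh1 (1.85 ± 0.36, adjusted p = 0.00186), and 197 and 77.9 CPM in wt (1.34 ± 0.36, adjusted p = 0.0107). dpy-2, dpy-3 and dpy-7 had log2 fold changes of 1.68, 2.00 and 1.76 labelled glh1 and 1.33, 1.74 and 1.52 in wt. Of 11 genes of procollagen modification and cross-linking, 6 were higher labelled glh1 and 3 in wt, with 0 lower in either. They included the prolyl hydroxylase dpy-18 (1.59 ± 0.32 labelled glh1, adjusted p = 0.00204; 1.20 ± 0.31 wt, adjusted p = 0.00951) and the protein disulfide isomerase pdi-2 (1.48 ± 0.36, adjusted p = 0.00553; 1.16 ± 0.35, adjusted p = 0.0203).

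Other proteases and matrix genes held calls in both directions. Of 16 other metalloproteases and their inhibitors, 2 were higher and 0 lower labelled glh1 (zmp-3, 1.54 ± 0.33, and timp-1, 0.96 ± 0.26), and 3 were higher and 1 lower in wt (zmp-3, timp-1 and cri-2 higher, gon-1 lower). Of 3 other proprotein convertases, 0 were called, with kpc-1 at 0.97 ± 0.40 labelled glh1 (adjusted p = 0.0635) and 0.85 ± 0.40 in wt (adjusted p = 0.103). A list of 16 genes held ZP-domain and other precuticle genes, and also the intermediate filament gene ifb-1. Of these 16, 5 were higher and 1 lower labelled glh1, and 1 higher and 1 lower in wt. lpr-3, a lipocalin of the precuticle, was higher in both (0.94 ± 0.20, adjusted p = 0.00300, and 1.02 ± 0.20, adjusted p = 0.00186), and egg-6, a leucine-rich repeat protein, was lower in both (-0.72 ± 0.22, adjusted p = 0.0172, and -1.07 ± 0.22, adjusted p = 0.00228).

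The nas genes nas-3, nas-4, nas-8, nas-10, nas-12, nas-13, nas-14, nas-15, nas-23, nas-24, nas-25, nas-28, nas-31 and nas-33 were called in no contrast of the 4-group model of all 12 libraries. Group means ran from 0.159 CPM for nas-24 in wt polysomal RNA to 2.31 CPM for nas-31 in total RNA labelled glh1. nas-3 was called labelled glh1 with culture as a block (1.44 ± 0.37, adjusted p = 0.0132; 1.45 ± 0.70, adjusted p = 0.111 without it). The gene span of nas-4, at 1.04 CPM on average, overlaps that of C05D11.5 (6.77 CPM) by 437 bases on the same strand. Whether exons are shared was not tested, so the counts of nas-4 are uncertain.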

How the data were processed

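Polyadenylated RNA was sequenced with a stranded kit, per the labels' protocols. The authors deposited a table of estimated counts per gene and a table of regularized log2 (rlog) values. The submitters' processing notes name the build WBcel235, DESeq2 1.24.0 under R 3.6.1, RSEM 1.3.0, STAR 2.6.1b and Trimmomatic 0.36, whereas the count table carries the name of another quantifier, so which tool made the counts is not known. Use of the strand in counting is not given in those sources.

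Gene positions, symbols and exon lengths were read from Ensembl release 115, which held a symbol for 44017 IDs. The deposited estimated counts were rounded, filtered with filterByExpr (16526 genes), scaled with TMM and tested in R 4.3.3 with edgeR 4.0.16, as 1 quasi-likelihood model of 4 groups of 3 libraries. Benjamini-Hochberg adjustment was made over all genes of each of 5 contrasts, and genes under 0.05 were called. Levels are TMM-scaled CPM. Principal components used log2 CPM with a prior count of 2. Depth was 34520267 to 49672537 estimated counts per library, and the median SE of a member's log2 fold change was 0.32 in total RNA.

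Members and gene lists were chosen with earlier results of these data known. Values in every library are given for members called in any contrast and for those with a known role, and up to 4 genes of each list by smallest adjusted p. Same-numbered total and polysomal libraries of a genotype share a lysate, which pairs the fractions. Their deviations from group means correlated at 0.756, 0.440 and 0.303 in wt and at 0.0989, -0.163 and -0.206 labelled glh1. Alternatives were other scalings and filters, DESeq2 1.42.0, limma 3.58.1 on the rlog values, blocks, a minimum log2 fold change of 1, and libraries left out. The test was run on simulated data first. Tables and figures used Python 3.11.15, pandas 2.3.3 and matplotlib 3.10.9.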

Additional observations from a re-analysis of the deposited data

Results flagged for a closer look

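The polysomal to total ratio of mlt-7 was above 1 in all 3 cultures labelled glh1 (1.29, 1.15 and 1.07) and below 1 in all 3 wt cultures (0.867, 0.873 and 0.619), so the cultures of the 2 genotypes lay on opposite sides of 1. Of all genes tested, 0.635% had that pattern. With upper-quartile scaling the ratios were 1.40, 1.26 and 1.23 labelled glh1 and 0.945, 1.11 and 0.762 in wt, so the pattern was lost. Neither polysomal minus total contrast of mlt-7 was called (0.22 ± 0.24 labelled glh1, adjusted p = 0.463; -0.39 ± 0.23 in wt, adjusted p = 0.197). The difference itself, tested as an interaction with edgeR, was 0.62 ± 0.33 on the log2 scale and was not called (adjusted p = 1.000).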

How the results depend on the processing

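Of 3413 alternative values for single members, 3321 kept their side of the threshold, 74 lost a call and 18 gained one. The sign changed in 0 of the 526 values called with all libraries or in the alternative, and in 291 of the 2887 called in neither. Between genotypes in total RNA, the members called were 0 with size factors of the DESeq2 kind, with upper-quartile scaling, with no filter and with limma on rlog values, 2 with only the groups compared and with DESeq2, and 3 with the replicate block and without wt culture 1, against 1 in the main model; leaving out 1 library gave 0 to 1. All genes called there were 156, against 1337 with only the groups compared, 1894 with the replicate block, 881 with DESeq2 and 1563 without wt culture 1, and 30 to 436 with a library left out. In polysomal RNA, 3 members were called without wt culture 1, and 0 with any library left out. All genes called there were 175, against 88 with the strict filter (at least 5 CPM in 3 libraries), 3 with only the groups compared, 12 with the replicate block, 765 with DESeq2 and 1456 without wt culture 1, and 48 to 402 with a library left out. For polysomal against total RNA in wt, members called were 17, against 9 with the strict filter, which tested 17 members, and 7 with the minimum fold, and 9 to 16 with a library left out (9 without wt total library 3 and 11 without wt polysomal library 2). All genes there were 6593, against 5523 of 10479 with the strict filter, 4362 with the minimum fold and 4401 to 6551 with a library left out. Labelled glh1, members called were 17, against 9 with the minimum fold and 10 to 14 with a library left out. The 10 were called without total library 3. All genes called labelled glh1 were 7064, against 4716 with the minimum fold and 4859 to 6984 with a library left out. The interaction called 0 genes, against 3 with DESeq2 and 0 to 1 with a library left out. The cause of these shifts was not tested. Leaving out wt culture 1 and limma on rlog values were chosen after the data were seen. The replicate number of libraries labelled glh1 and wt marks no shared culture, and same-numbered libraries correlated at 0.117, 0.104 and 0.0877 in total and 0.201, 0.0518 and 0.306 in polysomal RNA, where each correlated best with its own number in 3 of 3 and 2 of 3 cases. Culture as a block in the fraction contrasts called 19 of 46 members in each genotype. All genes called in those fits were 7424 of 16526 in wt and 7906 of 16526 labelled glh1. Without the length term bli-4 and dpy-31 still stood first by wt total level, followed by noah-2, nas-9 and mlt-11; the order was not tested. Between genotypes in total RNA the SE had a median of 0.32 over the members. For the 18 members under 1 CPM it ran from 0.35 (nas-29) to 0.84 (nas-13 and nas-27). At the wider of these SEs, only large changes would be called. The parts of depth and of spread between cultures in these SEs were not tested.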
